A study of Mus musculus with 9 samples.

Results

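Glucose enters the heart muscle cell, is broken down to pyruvate and lactate or stored as glycogen, and its pyruvate is carried into the mitochondrion and oxidised. The 42 genes described here encode the transporters, enzymes and regulators of this route: 2 glucose transporters, 3 genes of hexokinase and phosphoglucose isomerase, 3 subunits of phosphofructokinase-1, 3 of the bifunctional phosphofructokinase-2, 10 of lower glycolysis, 4 of lactate, 8 of glycogen and 9 of pyruvate entry and oxidation. They were chosen by name, for their known function, and all 42 were found among 41709 gene names. The samples were 9 RNA-seq libraries of whole hearts from male FVB/N mice aged 8 months. The 3 mice labelled Tg_RKIP carried a transgene for the RAF kinase inhibitor protein (RKIP, gene Pebp1), which the study drove in the myocardium with the alpha-MHC promoter and whose mice the series describes with signs of heart failure. The 3 mice labelled Tg_GRK2 carried, by their label, a transgene for G protein-coupled receptor kinase 2, for which no promoter is given in the sources used here, and 3 non-transgenic FVB mice were the controls.

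The adult heart draws most of its energy from fatty acids and a smaller part from glucose and lactate. Slc2a4 (GLUT4) is its insulin-responsive glucose transporter, and muscle forms of the glycolytic enzymes, such as Pfkm, Eno3 and Pgam2, are expressed beside forms that most other tissues use, such as Pfkp, Eno1 and Pgam1. Pyruvate crosses the inner mitochondrial membrane through the Mpc1-Mpc2 carrier and is oxidised to acetyl-CoA by the pyruvate dehydrogenase complex, whose E1 (Pdha1, Pdhb) and E2 (Dlat) subunits are among the 42 genes. The Pdk kinases switch this complex off by phosphorylating E1, and the phosphatase Pdp1 switches it on again.

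The libraries held 25458108 to 33447654 reads, and the 42 genes took 1.69 to 1.72% of them in every library. The transcript level of Pebp1 checked the Tg-RKIP label: it was 15967 to 16371 TPM (reads divided by transcript length and scaled to the same total in every library) in the 3 Tg-RKIP hearts and 321 to 330 TPM in FVB hearts. Grk2 was not detectably higher in the hearts labelled Tg-GRK2 (24.9 to 30.5 TPM) than in FVB hearts (25.9 to 27.9 TPM; log2 fold change 0.05 ± 0.04 SE, adjusted p = 0.354 by edgeR's quasi-likelihood test), so these libraries are named by their label throughout. Library 1 of the hearts labelled Tg-GRK2 stood apart by its 18S ribosomal RNA (1.31% of reads, against 0.168 to 0.270% in the other 8). Mitochondrially encoded genes took 11.5 to 11.8% of reads in Tg-RKIP hearts, 22.4 to 22.9% in hearts labelled Tg-GRK2 and 22.9 to 23.2% in FVB hearts. The scale matters for the size of every fold change given below, and for the direction of some. Fold changes come from counts normalised by TMM, which puts the median gene near 0 (0.01 on the log2 scale), while scaling by library size or TPM puts the median gene of Tg-RKIP hearts 0.38 or 0.43 above FVB.

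The sequences below belong to the members the results turn on. The pyruvate kinase of muscle, the last enzyme of glycolysis, is made from Pkm (chromosome 9, 59563651 to 59586658, GRCm39) in a muscle form, M1, and a form of most growing tissues, M2, which differ by a mutually exclusive coding exon. The exons of the 2 main Pkm transcripts are shown because the reads of Pkm were split differently between them in Tg-RKIP hearts. They are read from GENCODE transcripts of build GRCm38, forward strand, chr9:59675029-59675195 for M1 and chr9:59675568-59675734 for M2, and capitals mark the 64 of 167 aligned positions at which they differ.
Pkm exon M1: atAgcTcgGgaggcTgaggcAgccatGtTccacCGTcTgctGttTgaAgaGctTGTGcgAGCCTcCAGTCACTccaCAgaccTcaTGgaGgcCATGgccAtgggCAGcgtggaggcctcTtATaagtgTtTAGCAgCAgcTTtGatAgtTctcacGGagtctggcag
Pkm exon M2: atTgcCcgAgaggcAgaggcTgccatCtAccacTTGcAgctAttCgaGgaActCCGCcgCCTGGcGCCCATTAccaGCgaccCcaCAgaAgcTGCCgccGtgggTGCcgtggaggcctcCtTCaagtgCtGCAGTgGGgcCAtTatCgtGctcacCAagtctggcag

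Promoters are shown for Slc16a3 and Pdk3, which rose most apart from the little-read Aldoc, and for Pdha1, Pdhb and Dlat, which encode parts of the pyruvate dehydrogenase complex and fell together. Each is the 250 bases before the RefSeq start (GRCm38.p6): chr11:120948817-120949066, forward strand, for Slc16a3; chrX:93832151-93832400, reverse strand, for Pdk3; chrX:160138431-160138680, reverse strand, for Pdha1; chr14:8172993-8173242, reverse strand, for Pdhb; and chr9:50659781-50660030, reverse strand, for Dlat. Capitals mark ACGTG, the core of the hypoxia-inducible factor motif, and GGGCGG, the GC box, on either strand. The Pdha1 sequence holds neither.
Slc16a3: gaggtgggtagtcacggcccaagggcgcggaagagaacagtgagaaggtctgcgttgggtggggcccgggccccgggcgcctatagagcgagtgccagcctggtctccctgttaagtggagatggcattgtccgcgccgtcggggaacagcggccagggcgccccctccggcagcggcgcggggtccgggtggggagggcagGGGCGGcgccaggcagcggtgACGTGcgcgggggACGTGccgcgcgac
Pdk3: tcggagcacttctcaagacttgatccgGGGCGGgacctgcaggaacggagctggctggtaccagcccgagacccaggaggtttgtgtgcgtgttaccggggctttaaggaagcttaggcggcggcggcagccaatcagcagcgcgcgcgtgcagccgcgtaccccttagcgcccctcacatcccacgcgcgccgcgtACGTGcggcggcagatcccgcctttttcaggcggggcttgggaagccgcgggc
Pdha1: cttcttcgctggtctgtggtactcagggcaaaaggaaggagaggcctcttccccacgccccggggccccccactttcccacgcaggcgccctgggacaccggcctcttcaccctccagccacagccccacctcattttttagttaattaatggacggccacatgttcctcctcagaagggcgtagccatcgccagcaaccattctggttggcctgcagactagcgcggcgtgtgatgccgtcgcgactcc
Pdhb: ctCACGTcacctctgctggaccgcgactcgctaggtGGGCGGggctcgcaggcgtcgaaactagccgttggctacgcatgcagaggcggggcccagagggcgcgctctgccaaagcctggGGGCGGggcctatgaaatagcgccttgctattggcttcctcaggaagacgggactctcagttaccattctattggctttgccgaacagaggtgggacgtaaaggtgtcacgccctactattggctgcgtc
Dlat: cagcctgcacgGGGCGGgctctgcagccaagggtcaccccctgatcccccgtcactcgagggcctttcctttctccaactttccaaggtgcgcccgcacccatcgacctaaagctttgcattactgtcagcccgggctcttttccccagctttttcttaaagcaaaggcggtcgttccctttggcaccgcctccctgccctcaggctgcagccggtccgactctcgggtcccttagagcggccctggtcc
ACGTG was found in the promoters of 18 of the 40 genes present in the RefSeq table (45%), against 18.5% of all 27025 genes there. GGGCGG was found in 26 of 40 (65.0%, against 35.4%), the E-box CACGTG, which contains ACGTG, in 6 (15%, against 6.86%), TATAAA in 1, Pfkfb1 (2.5%, against 14.3%), and TNAAGGTCA, the oestrogen-related receptor element, in 0 of 40 (against 1.30%). A gene was counted if any of its listed starts held the motif. Counted by promoter, ACGTG was in 22 of 60 (36.7%, against 16.6% of all 32851) and GGGCGG in 30 of 60 (50%, against 32.7%). Of the genes that were higher in Tg-RKIP hearts on every scale (below), 7 of 13 held ACGTG (Slc2a1, Pgk1, Pgam1, Ldha, Slc16a3, Pygl and Pdk3), and of the 12 in the table that were lower on every scale 4 did (Pfkfb2, Slc16a1, Pdhb and Pdk2).

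In Tg-RKIP hearts the genes of pyruvate entry and oxidation fell nearly as a block. In 12 of 13 enzyme or transporter families a paralogue or subunit had a share that did not overlap with its share in FVB hearts. For hearts labelled Tg-GRK2 against FVB hearts the same held in 7 of 13. Other gene families were not counted, so whether 12 of 13 in Tg-RKIP hearts exceeds what families at large would give was not tested. Of the 42 genes, 15 were higher and 26 lower than in FVB hearts, and Gbe1 did not pass the test (edgeR, adjusted p under 0.05). Over all 15504 genes tested, 36.8% were higher and 37.1% lower. A change of at least 0.5 on the log2 scale was met by 6 genes upwards and 14 downwards, 47.6% of the 42, against 39.1% of all genes. The median log2 fold change of the 42 was -0.26, against 0.01 for all genes. Scaled by library size, 23 were higher and 16 lower (all genes: 62.6% and 17.1%), and in TPM 24 were higher and 12 lower (all genes: 66% and 14.4%). The median of the 42 was then 0.11 and 0.21, and its difference from the median of all genes on the same scale was -0.27 and -0.21.

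The direction held for 26 of the 42 genes in all 13 settings of scale, filter, tool, block, groups in the fit and gene summary, 1 of which, the test of a minimum fold, keeps the fold changes of the edgeR fit. Leaving out single libraries is not among these. Higher in each of them were Slc2a1, Hk1, Gpi1, Pfkl, Pfkp, Aldoc, Gapdh, Pgk1, Pgam1, Ldha, Slc16a3, Pygl and Pdk3. Lower in each were Slc2a4, Pfkfb1, Pfkfb2, Eno3, Ldhb, Slc16a1, Pdha1, Pdhb, Dlat, Pdk1, Pdk2, Mpc1 and Mpc2. Pfkfb3 and Eno1 turned only when a gene was represented by its most abundant transcript alone. For Gpi1 the most abundant transcript is 933 bases long and annotated as nonsense-mediated decay. The other 14 (Hk2, Pfkm, Aldoa, Tpi1, Pgam2, Pkm, Gys1, Gbe1, Pygm, Pygb, Phka1, Phkb, Phkg1 and Pdp1) were below FVB by TMM and above it by at least 1 other scale or summary. Of these, 5 were still below FVB by library size (Hk2 at -0.53, Phkb at -0.15, Pygm at -0.06, Phka1 at -0.03 and Pfkm at -0.02) and the other 9 above.

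**Figure D1:**
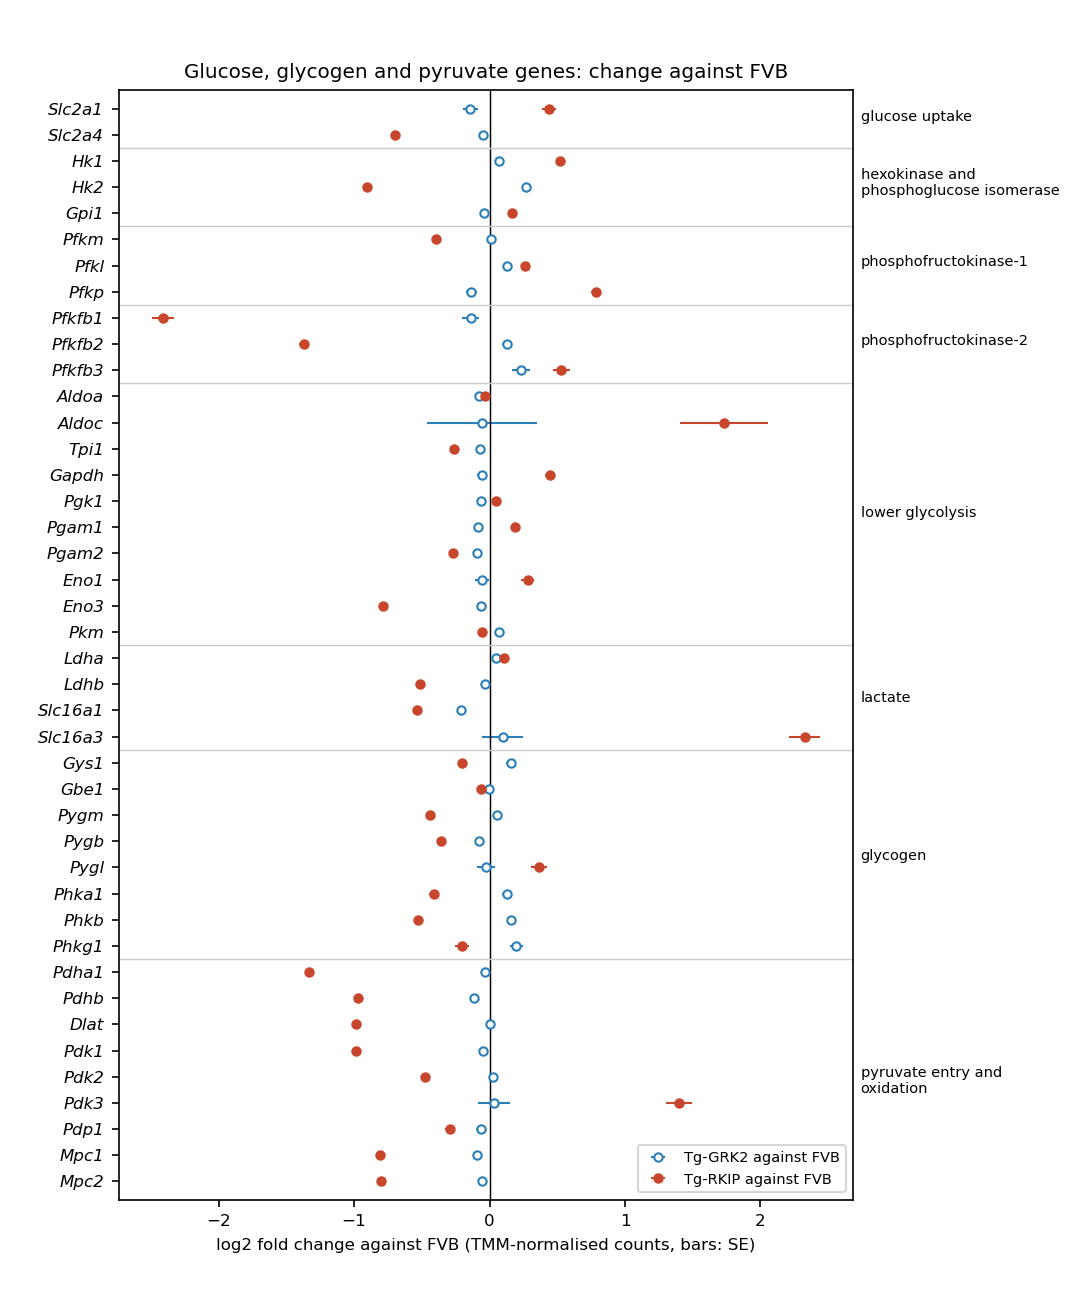
Log2 fold change against FVB (x axis, TMM-normalised counts) of each of the 42 genes (y axis, grouped by role), with filled points for Tg-RKIP and open points for the hearts labelled Tg-GRK2, bars showing the SE. The Tg-RKIP points spread from -2.41 (Pfkfb1) to 2.33 (Slc16a3), whereas the open points lie between -0.21 and 0.27.

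**Figure D2:**
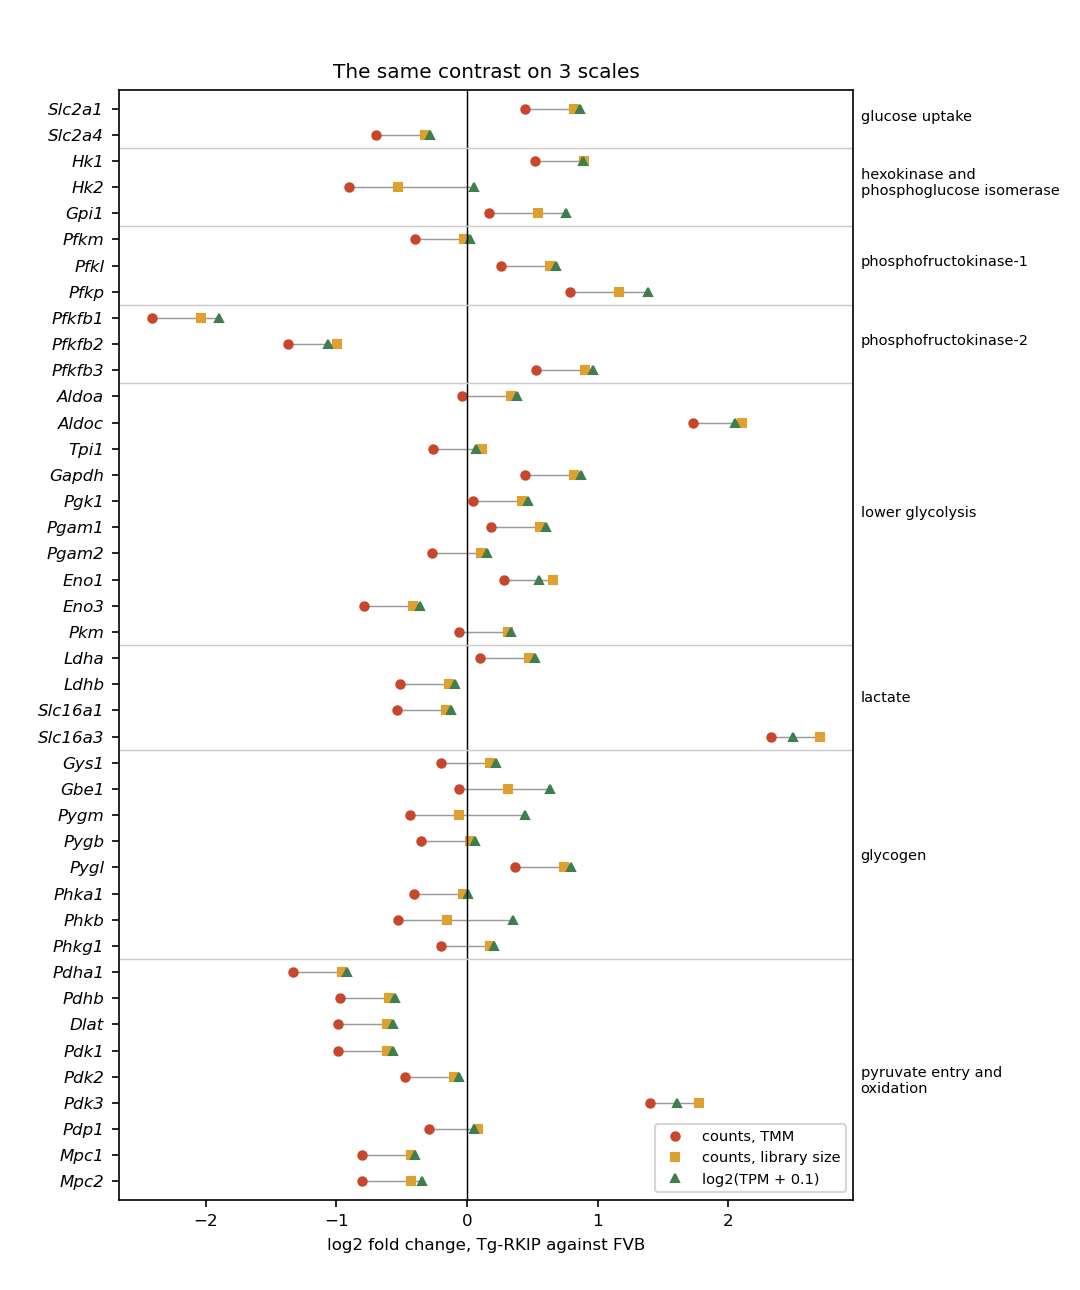
Log2 fold change of Tg-RKIP against FVB (x axis) of the 42 genes (y axis) on 3 scales: TMM-normalised counts (circles), counts scaled by library size (squares) and log2(TPM + 0.1) (triangles). The pyruvate genes other than Pdk3 and Pdp1 stay left of 0 on each scale, whereas Pdp1 and 13 others cross it.

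In glucose uptake and the first steps of glycolysis the balance of paralogues differed between Tg-RKIP and FVB hearts. Slc2a4, the more abundant transporter, gave 6615, 6658 and 6647 normalised reads in Tg-RKIP hearts, 10511, 10600 and 10241 in hearts labelled Tg-GRK2 and 10841, 10792 and 10708 in FVB hearts. All 3 Tg-RKIP hearts were below all others, and Slc2a4 fell by 0.70 ± 0.02 (log2, SE; adjusted p = 8.65e-19, edgeR). Slc2a1 (GLUT1), the basal transporter, rose from 465 ± 20.8 to 631 ± 16.5 normalised reads (mean ± SD, n = 3; log2 fold change 0.44 ± 0.05), and it held 8.89 ± 0.18% of the summed TPM of both transporters, against 4.20 ± 0.14% in FVB hearts. Such a share is taken within a library and does not depend on how libraries are scaled. Its size does depend on the unit (TPM or reads) and on how reads are divided between transcripts.

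Hk2, the insulin-regulated hexokinase of muscle (chromosome 6, 82702006 to 82751435, reverse strand), gave 5651, 5611 and 5616 normalised reads in Tg-RKIP hearts, 12856, 12873 and 12342 in hearts labelled Tg-GRK2 and 10567, 10471 and 10488 in FVB hearts. The 3 groups did not overlap, and Hk2 was lower by 0.90 ± 0.02 in Tg-RKIP (log2, SE; adjusted p = 2.35e-20) and higher by 0.27 ± 0.02 in hearts labelled Tg-GRK2 (adjusted p = 6.19e-10, edgeR), although in TPM it was level with FVB in Tg-RKIP (log2 0.05). Hk1, the hexokinase of most tissues, rose from 77.8 ± 1.51 to 144 ± 2.56 TPM (log2 fold change by TMM 0.52 ± 0.02). Hk1 thus made up 53.3 ± 0.37% of hexokinase TPM in Tg-RKIP hearts, against 38.7 ± 0.35% in hearts labelled Tg-GRK2 and 39.0 ± 0.55% in FVB hearts. Gpi1, which converts glucose-6-phosphate to fructose-6-phosphate and is the most abundant gene of this role, gave 16310, 16308 and 16636 normalised reads in Tg-RKIP hearts, 14298, 14236 and 14152 in hearts labelled Tg-GRK2, and 14499, 14467 and 14932 in FVB hearts. It was 1.12-fold higher in Tg-RKIP than in FVB hearts. Its most abundant transcript by TPM, of 933 bases and annotated as nonsense-mediated decay, was higher by 0.63 on the log2 scale. Another of its transcripts stood at -0.01 ± 0.03 (adjusted p = 0.876, edgeR), so not all its transcripts rose.

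The committed step of glycolysis is set by phosphofructokinase-1 and by fructose-2,6-bisphosphate, its activator, which the phosphofructokinase-2 enzymes make and degrade. Pfkm, the muscle subunit, gave 24342, 24167 and 24650 normalised reads in Tg-RKIP hearts, 32398, 32455 and 31973 in hearts labelled Tg-GRK2 and 31997, 31921 and 32324 in FVB hearts. It was lower by 0.40 ± 0.02 on the log2 scale by TMM, and 0.02 higher in TPM. Pfkp, the platelet subunit, rose from 30.5 ± 1.58 to 79.9 ± 3.93 TPM (log2 fold change by TMM 0.78 ± 0.04) and its share of the family's TPM was 11.3 ± 0.53% in Tg-RKIP against 4.94 ± 0.25% in FVB hearts. The share of Pfkl, the liver subunit, was 10.9 ± 0.30% against 7.74 ± 0.37%.

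The phosphofructokinase-2 genes showed the largest fall of the 42. Pfkfb1 (X chromosome, 149371225 to 149426874, forward strand), the liver and muscle form, gave 82.8, 76.3 and 92.7 normalised reads in Tg-RKIP hearts, 405, 387 and 413 in hearts labelled Tg-GRK2 and 434, 444 and 451 in FVB hearts, a 5.31-fold fall (log2 -2.41 ± 0.08, adjusted p = 4.85e-17, edgeR). Pfkfb2, the heart form (chromosome 1, 130616919 to 130656990, reverse strand), gave 628, 593 and 608 in Tg-RKIP hearts, 1708, 1698 and 1738 in hearts labelled Tg-GRK2 and 1546, 1552 and 1620 in FVB hearts, a 2.58-fold fall (log2 -1.37 ± 0.04, adjusted p = 1.47e-18). No Tg-RKIP heart came near the others in either gene, and Pfkfb2 was slightly higher in hearts labelled Tg-GRK2 than in FVB hearts (log2 0.13 ± 0.03, adjusted p = 0.00717). Pfkfb3, the inducible form with high kinase activity, was higher in Tg-RKIP hearts (log2 0.53 ± 0.06, 453 to 495 normalised reads against 326 to 329 in FVB). Its most abundant transcript alone was lower (log2 -0.73), but no single Pfkfb3 transcript that was tested passed the threshold. The share of Pfkfb3 in the family's TPM was 31.9 ± 2.54% in Tg-RKIP, 9.96 ± 1.10% in hearts labelled Tg-GRK2 and 8.63 ± 0.37% in FVB hearts.

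In lower glycolysis 5 of 10 genes were higher and 5 lower, with a median of 0.01 that equals that of all genes. Aldoa, the muscle aldolase and the most abundant of the 42 genes, gave 63711, 62885 and 65337 normalised reads in Tg-RKIP hearts, 62025, 62127 and 61815 in hearts labelled Tg-GRK2 and 65611, 65536 and 65442 in FVB hearts. Tg-RKIP hearts were slightly lower than FVB hearts by TMM (log2 -0.03) and higher in TPM (0.38). Aldoc, the brain aldolase, was read 54, 49 and 35 times in Tg-RKIP hearts, 5, 14 and 14 times in hearts labelled Tg-GRK2 and 12, 8 and 12 times in FVB hearts. Its rise of 1.73 ± 0.32 on the log2 scale (adjusted p = 6.14e-05, edgeR) concerned a gene at 0.07% of aldolase TPM. Eno3, the muscle enolase, fell from 37186 ± 127 to 21568 ± 364 normalised reads (log2 -0.79 ± 0.02), while Eno1, the form of most tissues, was higher by 0.28 ± 0.05 in the summed reads of the gene and lower (log2 -0.75) in its most abundant transcript alone. Eno1 made up 9.33 ± 0.55% of enolase TPM against 5.17 ± 0.50% in FVB hearts. Pgam1 likewise took 13.01 ± 0.31% of phosphoglycerate mutase TPM against 9.85 ± 0.13%. Gapdh, often used as a reference gene, was higher by 0.44 ± 0.03 in Tg-RKIP hearts. Pgk1, which makes the first ATP of glycolysis, was higher by 0.05, and triose phosphate isomerase (Tpi1) and Pgam2 were lower by TMM (log2 -0.26 and -0.27) but higher in TPM (0.07 and 0.15). Gapdh, Pgam1 and Eno1 have near-identical processed copies in the mouse genome, and how reads shared with these were assigned is not given, which leaves their levels uncertain.

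Pkm as a whole was slightly lower by TMM (log2 -0.06 ± 0.02) and higher in TPM (0.34). Its reads were split differently between the transcripts whose exons are shown above. The M2 transcript took 46.3, 45.4 and 45.9% of the reads of M1 and M2 in Tg-RKIP hearts, 36.2, 35.2 and 38.0% in hearts labelled Tg-GRK2 and 38.0, 36.7 and 39.4% in FVB hearts. Tg-RKIP and FVB hearts did not overlap, with a difference of 7.81 percentage points (exact two-sided permutation test, p = 0.1, the smallest that 3 against 3 can give), whereas hearts labelled Tg-GRK2 and FVB hearts overlapped (p = 0.3, exact). The annotated M2 transcript also holds 391 bases at its ends that the M1 transcript lacks, besides the 167 of the exon, so that reads of 50 bases could be given to M2 by either, and the part of the ends was not tested.

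Of the lactate genes, those of the heart forms fell. Ldhb, the heart lactate dehydrogenase subunit, gave 25138, 25231 and 25593 normalised reads in Tg-RKIP hearts, 35132, 35461 and 35287 in hearts labelled Tg-GRK2 and 35966, 36321 and 36245 in FVB hearts. It fell by 0.51 ± 0.02 on the log2 scale (adjusted p = 5.97e-18, edgeR). Ldha, the muscle subunit, was higher by 0.10 ± 0.02, and its share of lactate dehydrogenase TPM was 35.7 ± 0.19% in Tg-RKIP, 27.6 ± 0.23% in hearts labelled Tg-GRK2 and 26.6 ± 0.24% in FVB hearts. Slc16a1 (MCT1), which carries lactate in or out, fell by 0.54 ± 0.02 and was also lower in hearts labelled Tg-GRK2 (log2 -0.21 ± 0.02, adjusted p = 1.76e-07), the lowest value of the 42 in that comparison. Slc16a3 (MCT4, chromosome 11, 120839306 to 120851694, forward strand), the lactate exporter of glycolytic cells, gave 294, 280 and 288 normalised reads in Tg-RKIP hearts, 65.1, 55.7 and 62.5 in hearts labelled Tg-GRK2 and 47.6, 58.6 and 65.2 in FVB hearts. Its 5.01-fold rise (log2 2.33 ± 0.11, adjusted p = 3.37e-14) was the highest of the 42, and its share of the TPM of both carriers was 7.17 ± 0.23% against 1.18 ± 0.17%.

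**Figure D3:**
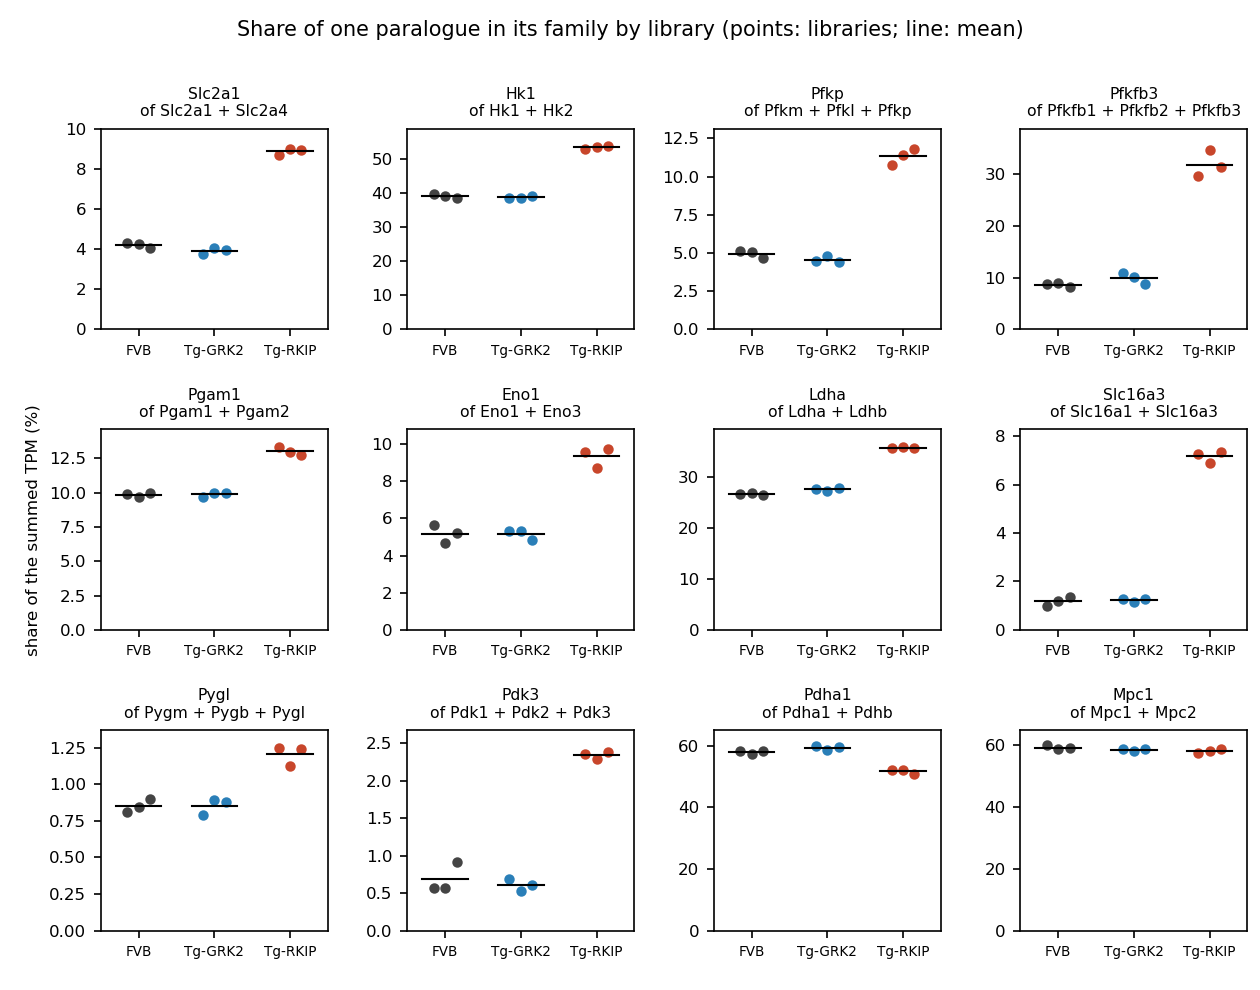
Share of the named paralogue or subunit in the summed TPM of its family (y axis, percent, from 0) in each library (points, with the mean as a line). The libraries are of FVB, Tg-GRK2-labelled and Tg-RKIP hearts, for 12 families. The Tg-RKIP hearts lie apart from FVB in every panel but Mpc1, for example at 53.3% against 39.0% for Hk1.

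Over the 13 families, 12 had a member whose share differed without overlap between Tg-RKIP and FVB hearts, the mitochondrial pyruvate carrier being the exception (exact two-sided permutation test, p = 0.1, the smallest possible). Between hearts labelled Tg-GRK2 and FVB hearts 7 of the 13 families had such a member. No count over other gene families was made, while 36.8% of all genes tested were called higher and 37.1% lower for Tg-RKIP against FVB. Whether the 12 families exceed what other families would give was thus not tested. When each gene was represented by its most abundant transcript alone, the shares of Pfkfb1, Pfkfb3, Aldoc and Eno1 overlapped. For glycogen phosphorylase the direction depended on the unit, since the muscle form Pygm took 63.2% of TPM in Tg-RKIP against 57.1% in FVB hearts, but 46.9% of normalised reads against 48.6%. Markers of other cell types also differed between the groups. The summed TPM of 8 fibroblast markers was 2793 to 2816 in Tg-RKIP, 1123 to 1136 in hearts labelled Tg-GRK2 and 984 to 1021 in FVB hearts, with all 8 higher in Tg-RKIP. That of 9 macrophage markers was 847 to 851, 369 to 384 and 326 to 338, with all 9 higher, and that of 8 adipocyte markers was 205 to 213, 51.8 to 53.4 and 33.4 to 35.6, with all 8 higher. Endothelial markers (7) summed to 1191 to 1213, 770 to 802 and 860 to 887, with 4 higher and 3 lower in Tg-RKIP by TMM. Smooth muscle and pericyte markers (6) summed to 871 to 891, 407 to 416 and 431 to 448, with 4 higher and 2 lower, and cartilage markers (5) to 324 to 331, 10.2 to 10.6 and 9.88 to 10.6, with 4 higher of 4 tested. Of the 10 cardiomyocyte markers, which summed to 67599 to 68815, 73590 to 75608 and 76078 to 76244 TPM, 9 fell by TMM against FVB, and by library size 8 were lower and 2 higher. Erythrocyte markers (6) summed to 3477 to 3645, 1666 to 1690 and 739 to 753 TPM, with all 6 higher than in FVB hearts in both other groups. Airway epithelium markers (5) summed to 55.3 to 57.7 TPM in Tg-RKIP hearts, to 138 to 146 TPM in hearts labelled Tg-GRK2 and to at most 0.07 TPM in FVB hearts, where Scgb1a1, Scgb3a2 and Sftpc were at 0. Markers of skeletal muscle (9), in which muscle forms are also high, summed to 8.27 to 9.49 TPM in Tg-RKIP hearts, 4.55 to 4.79 in hearts labelled Tg-GRK2 and 3.24 to 5.56 in FVB hearts, with 2 higher and 1 lower of 5 tested. In whole hearts fewer cells of a type and less RNA per cell cannot be told apart, and the part of other cell types in these results was not tested.

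Of the 8 glycogen genes, 6 were lower in Tg-RKIP hearts by TMM, 1 was higher (Pygl, the liver phosphorylase, log2 0.36 ± 0.06) and Gbe1, the branching enzyme, did not pass the test (log2 -0.06, adjusted p = 0.0621). Except for Pygl, the direction of each turned with the scale. Pygm, the most abundant of them, gave 24507, 24248 and 24569 normalised reads in Tg-RKIP hearts, 34284, 34659 and 34474 in hearts labelled Tg-GRK2 and 33339, 32985 and 33106 in FVB hearts. It was lower by 0.44 ± 0.02 on the log2 scale by TMM and higher by 0.45 in TPM. Phkb and Phka1, regulatory subunits of phosphorylase kinase, were lower by 0.52 ± 0.03 and 0.41 ± 0.04 by TMM, and higher by 0.35 and 0.01 in TPM. Pygb, the brain phosphorylase, glycogen synthase Gys1 and the catalytic kinase subunit Phkg1 were lower by TMM (log2 -0.35, -0.20 and -0.20) and higher in TPM (0.06, 0.22 and 0.21).

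The log2 fold changes in TPM and by library size parted by more than 0.2 for Hk2, Pygm, Phkb, Gbe1, Pfkp and Gpi1, for which TPM gave the higher value, and for Slc16a3, for which it gave the lower one. In Hk2, Pygm, Gbe1, Pfkp and Gpi1 reads lay more on short annotated transcripts in Tg-RKIP than in FVB hearts, with no overlap. In Slc16a3 they lay less there (0.28 ± 0.26% against 8.70 ± 7.76%), with only 41 to 57 reads of the gene per FVB library. In Phkb the groups overlapped, while 1 of its transcripts fell (log2 -1.44 ± 0.06) and another rose (0.41 ± 0.04). Transcripts under 1000 bases took 11.6 ± 0.46% of the reads of Hk2 in Tg-RKIP hearts, 2.41 ± 0.19% in hearts labelled Tg-GRK2 and 4.28 ± 0.28% in FVB hearts (mean ± SD, n = 3). For Pygm these shares were 9.49 ± 0.16%, 0.16 ± 0.14% and 0.91 ± 0.50%, and for Gbe1 10.1 ± 2.03%, 3.18 ± 1.60% and 2.88 ± 2.11%. Gpi1 (38.2% against 28.3% in FVB hearts) and Pfkp (11.1% against 6.80%) went the same way. The short transcripts that carried most of these reads in Hk2, Pygm and Gbe1 lie near the 3′ end, starting at 97.4%, 93.1% and 96.6% of the length of the gene. Of the 39 genes with a transcript under 1000 bases, the share of reads on these was higher without overlap in 8 and lower in 6. The same was not counted over all genes. Some of these shares were small, as in Hk1 (0.05% in Tg-RKIP against 0.20% in FVB hearts). In Pgam2 and Mpc1 all reads lay on short transcripts in every library, so the share could not differ. Over all 27030 genes with a transcript of at least 1000 bases, mitochondrial genes left out, 9.47 to 9.64% of reads in Tg-RKIP hearts, 7.51 to 7.68% in hearts labelled Tg-GRK2 and 8.00 to 8.18% in FVB hearts lay on shorter transcripts. Its part in the fold changes of these genes was not tested.

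**Figure D4:**
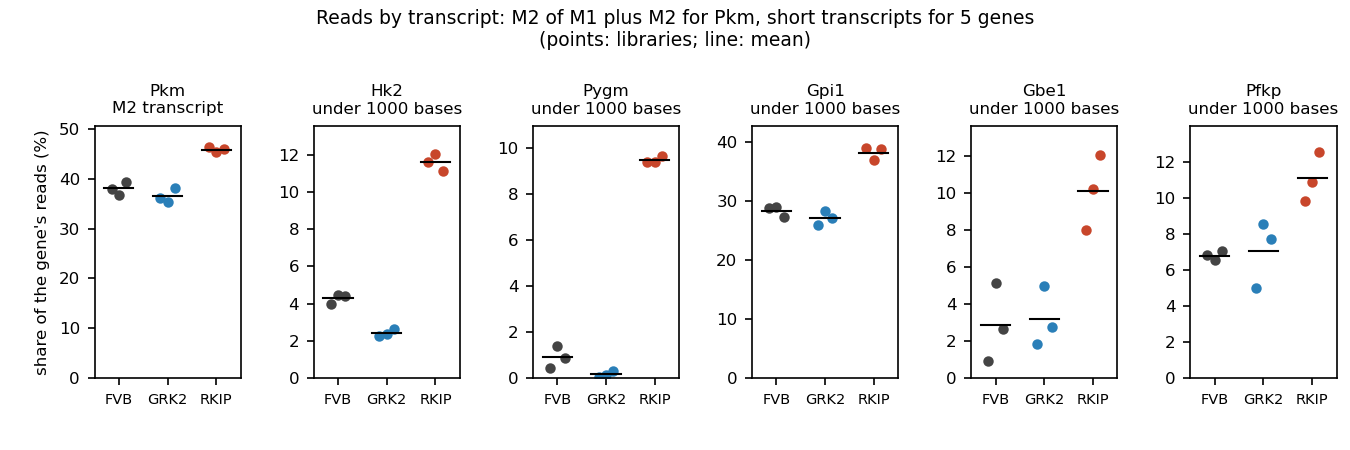
Share of reads (y axis, percent, from 0) in each library (points, with the mean as a line), for the M2 transcript among M1 and M2 of Pkm and for transcripts under 1000 bases of 5 genes, in FVB hearts, hearts labelled Tg-GRK2 and Tg-RKIP hearts. In each panel the Tg-RKIP hearts lie above the other groups, for example at 11.6% against 4.28% in FVB hearts for Hk2.

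Of the 9 genes of pyruvate entry and oxidation 8 were lower and 1 higher in Tg-RKIP hearts, with a median log2 fold change of -0.81. Among the roles only phosphofructokinase-2, with 3 genes, had a lower median (-1.37). Pdha1, which encodes the catalytic E1 alpha subunit (X chromosome, 158905205 to 158921409, reverse strand), gave 17417, 17936 and 17457 normalised reads in Tg-RKIP hearts, 43184, 43164 and 43840 in hearts labelled Tg-GRK2 and 44158, 44571 and 44477 in FVB hearts. All Tg-RKIP hearts were far below the other 6, and nearly all reads of the gene lay on a single transcript of 2848 bases. The fall was 2.52-fold (log2 -1.33 ± 0.02, adjusted p = 1.11e-24, edgeR), and in TPM the log2 difference was -0.92. Pdhb (E1 beta) fell from 17120 ± 378 to 8735 ± 233 normalised reads (log2 -0.97 ± 0.02) and Dlat (E2) from 15770 ± 29.3 to 7953 ± 190 (log2 -0.99 ± 0.02). Pdha1 held 51.7 ± 0.80% of E1 TPM in Tg-RKIP hearts, against 58.0 ± 0.46% in FVB hearts, with no overlap.

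Mpc1, the more abundant pyruvate carrier subunit, gave 9321, 9381 and 9386 normalised reads in Tg-RKIP hearts, 15108, 15187 and 15749 in hearts labelled Tg-GRK2 and 16408, 16340 and 16393 in FVB hearts. Mpc1 and Mpc2 fell together (log2 -0.81 ± 0.02 and -0.80 ± 0.03), and Mpc1 made up 58.2 ± 0.75% of carrier TPM in Tg-RKIP and 59.1 ± 0.70% in FVB hearts, which overlapped. Of the kinases, Pdk1 fell from 12103 ± 37.3 to 6095 ± 107 normalised reads (log2 -0.99 ± 0.02), and Pdk2 fell by 0.47 ± 0.02. Pdk3 (X chromosome, 92808213 to 92875807, reverse strand) gave 262, 255 and 251 normalised reads in Tg-RKIP hearts, 110, 87.9 and 101 in hearts labelled Tg-GRK2 and 95.2, 93.5 and 103 in FVB hearts. It was the one gene of this role to rise, by 1.40 ± 0.10 (adjusted p = 2.58e-11, edgeR), from 0.69 ± 0.20% to 2.35 ± 0.05% of the TPM of the 3 kinases. The phosphatase Pdp1 was lower by 0.29 ± 0.04 by TMM and level in TPM (log2 0.05).

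The summed level of the 9 genes was 2382, 2379 and 2355 TPM in the Tg-RKIP hearts, 3260, 3342 and 3316 in hearts labelled Tg-GRK2 and 3331, 3352 and 3331 in FVB hearts, a ratio of Tg-RKIP to FVB of 0.711 in TPM and 0.506 in normalised reads. The sum over all 42 genes was 15020 ± 138, 14274 ± 155 and 14183 ± 55.4 TPM in the same order of groups. Its ratio of Tg-RKIP to FVB was 1.06 in TPM and 0.768 in normalised reads, so its direction turned with the scale. By TMM the median log2 fold change against FVB was -0.78 over the 10 cardiomyocyte markers, beside -0.81 over the pyruvate genes. By library size the same medians were -0.41 and -0.43, and in TPM -0.26 and -0.40. How far both share a source was not tested.

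**Figure D5:**
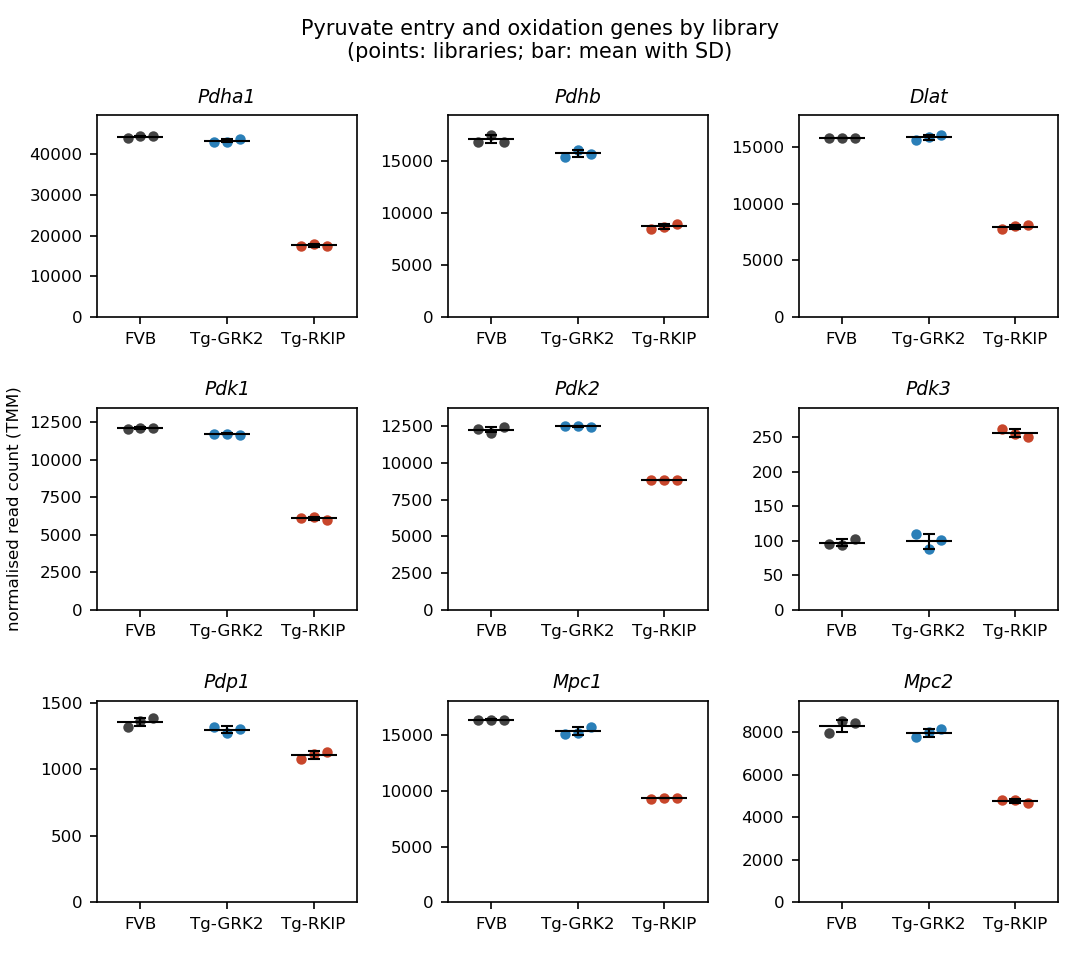
Normalised read count (y axis, TMM, from 0) of the 9 genes of pyruvate entry and oxidation in each library (points), with the mean and SD as bars, for FVB hearts, hearts labelled Tg-GRK2 and Tg-RKIP hearts. Tg-RKIP hearts lie below the other 6 in every panel but Pdk3, where they lie above (251 to 262, against 87.9 to 110).

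A wider list of 93 genes of glucose and pyruvate metabolism, of which 90 passed the filter on low counts, gave 29 higher, 48 lower and 13 without a call in Tg-RKIP against FVB hearts. The higher and lower genes were 32.2% and 53.3% of those tested, against 36.8% and 37.1% of all genes by TMM. By library size the split was 51 higher and 28 lower, and in TPM 49 and 25 of 88 tested, beside the shares of all genes given above for these scales (62.6% and 17.1%, 66% and 14.4%). In pyruvate oxidation and anaplerosis 10 of 11 were lower and 1, the mitochondrial malic enzyme Me2, was higher (616, 602 and 663 normalised reads, against 346, 323 and 336 in FVB hearts; log2 0.90 ± 0.06). Pdpr, the regulatory subunit of the pyruvate dehydrogenase phosphatase, fell 8.08-fold, from 2791, 2882 and 3031 to 364, 359 and 354 normalised reads (log2 -3.01 ± 0.04, adjusted p = 2.15e-24, edgeR). Pdk4, the kinase paralogue induced by fasting, fell 2.32-fold in Tg-RKIP hearts (5145, 4967 and 4944 normalised reads) and 1.87-fold in hearts labelled Tg-GRK2 (6199, 6186 and 6247), against 11774, 11623 and 11515 in FVB hearts. On the log2 scale these differences were -1.21 ± 0.02 and -0.91 ± 0.02, and both comparisons share the FVB controls. Of the other subgroups, glycogen genes were higher in 7 and lower in 9 of 19, genes of the pentose phosphate, polyol and hexosamine routes in 9 and 6 of 16, and regulators in 3 and 10 of 14.

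At the extremes of the wider list stood genes of gluconeogenesis. Fbp2, the muscle fructose bisphosphatase, fell from 448, 438 and 440 to 43.3, 27.2 and 34.8 normalised reads (log2 -3.68 ± 0.11). Pck1, phosphoenolpyruvate carboxykinase, a gene of liver, kidney and fat, rose from 75.5, 71.9 and 93.7 normalised reads in FVB hearts to 749, 761 and 755 in Tg-RKIP hearts, and stood at 306, 288 and 245 in hearts labelled Tg-GRK2. The 2 differences from FVB were 3.24 ± 0.09 and 1.80 ± 0.11 on the log2 scale (adjusted p = 1.18e-18 and 4.86e-11, edgeR). The adipocyte markers given above were ordered the same way over the 3 groups, and their part in the result was not tested. Eno2, the neuronal enolase (log2 1.49 ± 0.09), Myc, which drives glycolytic genes in dividing cells (1.14 ± 0.13), and the transporter Slc2a10 (1.12 ± 0.13) were also higher in Tg-RKIP hearts.

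In hearts labelled Tg-GRK2 the 42 genes moved little. Against FVB hearts 11 were higher, 11 lower and 20 without a call, where 12.2% of all genes tested were higher and 12.2% lower. In TPM the split was 8 higher and 1 lower (all genes: 11.7% and 4.55%). None of the 42 reached 0.5 on the log2 scale, which 3.68% of all genes did, and the values ran from -0.21 (Slc16a1) to 0.27 (Hk2), with a median of -0.04. Of the glycogen genes 5 were higher and 1 lower, and of lower glycolysis 1 was higher and 6 lower. Pdha1 differed from FVB by -0.03 ± 0.02 (adjusted p = 0.152) and Pfkfb1 by -0.14 ± 0.06 (adjusted p = 0.115). Without library 1, which stood apart by its ribosomal RNA, 9 genes were higher and 9 lower. Of the 90 genes tested of the wider list, 23 were higher and 20 lower, and in TPM 20 and 4 of 88 tested (all genes: 11.7% and 4.55%).

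Set against the hearts labelled Tg-GRK2, Tg-RKIP hearts gave 16 genes higher, 25 lower and 1 without a call, with a median of -0.25 (all genes tested: 37.9% higher and 36.6% lower). By library size the split was 22 higher and 17 lower (all genes: 62% and 18.4%), and in TPM 22 and 14 (all genes: 63% and 16.9%). A change of at least 0.5 was met by 18 of the 42 genes (42.9%) and by 40.2% of all genes in this comparison. The 7 genes Hk2, Pfkfb1, Pfkfb2, Aldoc, Slc16a3, Pdha1 and Pdk3 reached a difference of at least 1 only in comparisons with Tg-RKIP hearts. In each, hearts labelled Tg-GRK2 lay closer to FVB than to Tg-RKIP hearts, which follows from this choice.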

How the data were processed

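RNA from 9 hearts was sequenced as single reads of 50 bases. The authors deposited read counts per transcript (127558 rows, 0 without a gene name) and TPM per library. Per the submitters' processing notes the build was GRCm39, and the aligner and counter, and how reads shared between transcripts were divided, are not given in the sources used here. Counts were summed by gene name (41709), with the split entries of Aldoa joined, and TPM likewise.

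Counts of 15504 genes (filterByExpr) were fitted over all 9 libraries with edgeR 4.0.16 (TMM, quasi-likelihood test) in R 4.3.3, with Benjamini-Hochberg adjustment and a threshold of 0.05. Values per library are printed for genes with a log2 fold change of at least 1 in any comparison and for the most abundant gene of each role, means for those from 0.5 to 1, and 8 genes of the wider list by size of change (100 counts or more on average in whichever group was higher, 1 of them not reported here). Gapdh, Pkm, Ldha, Pdk2 and the genes named by subgroup were added for their role. Shares within families were compared by exact two-sided permutation tests. Alternatives used DESeq2 1.42.0, limma 3.58.1 on log2(TPM + 0.1) and log2(TPM + 1), other scalings and filters, the most abundant transcript, and each library left out. The genes and lists were chosen with earlier results of these data known. The fit was tried on simulated counts for 15504 genes in Tg-RKIP against FVB. It called 84% of genes changed 1.25-fold and 100% of those changed 2-fold with the right sign. Only 200 genes were changed there, in equal numbers up and down and none of them little read. With so few changed, the simulation cannot speak to directions that depend on the scale. The 3 libraries of a group come from 3 mice, by the labels, with a biological coefficient of variation of 1.90 to 3.69%, which is small for separate animals. The standard errors and adjusted p-values measure only the spread between these libraries, which may be partly technical. Replicate numbers did not pair the libraries (correlation of deviations of same-numbered libraries from -0.04 to 0.04).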

Additional observations from a re-analysis of the deposited data

How the results depend on the processing

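The counts of genes called higher and lower depended mostly on the scale. For Tg-RKIP against FVB (15 higher, 26 lower), scaling by library size gave 23 and 16, log2(TPM + 0.1) and log2(TPM + 1) both gave 24 and 12, and a test of a fold of at least 1.5 gave 4 and 11. For hearts labelled Tg-GRK2 against FVB (11 and 11), the most abundant transcript gave 7 and 5, the fold test 0 and 0, and both TPM settings 1 lower. For Tg-RKIP against hearts labelled Tg-GRK2 (16 and 25), the fold test gave 4 and 12, and both TPM settings 14 lower. For the wider list in Tg-RKIP against FVB (29 and 48), library size gave 51 and 28, both TPM settings 49 and 25, and the fold test 12 and 22. For the wider list in hearts labelled Tg-GRK2 (23 and 20), the most abundant transcript gave 14 and 12, the fold test 1 and 1, and TPM with 0.1 and 1 added gave 4 and 5 lower.

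Leaving out each library in turn gave 14 to 15 higher and 25 to 27 lower in Tg-RKIP against FVB, 9 to 12 and 9 to 12 in hearts labelled Tg-GRK2 against FVB, and 15 to 16 and 25 to 26 between Tg-RKIP hearts and hearts labelled Tg-GRK2. For the wider list it gave 27 to 29 and 47 to 48, and 17 to 23 and 17 to 20. With the replicate block the counts were 15 and 26, 11 and 11, and 16 and 25, and 29 and 48 and 23 and 19 for the wider list, so that the block moved no count by more than 1.5 times.

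Log2 fold changes of Tg-RKIP against FVB changed sign by library size for Aldoa (0.34), Tpi1 (0.11), Pgam2 (0.11), Pkm (0.32), Gys1 (0.17), Gbe1 (0.31), Pygb (0.020), Phkg1 (0.17) and Pdp1 (0.083). In log2(TPM + 0.1) they did for Hk2 (0.051), Pfkm (0.023), Aldoa (0.38), Tpi1 (0.072), Pgam2 (0.15), Pkm (0.34), Gys1 (0.22), Gbe1 (0.64), Pygm (0.45), Pygb (0.061), Phka1 (0.010), Phkb (0.35), Phkg1 (0.21) and Pdp1 (0.050), and in log2(TPM + 1) for the same genes, with 0.21 for Gys1, 0.63 for Gbe1, 0.0093 for Phka1, 0.34 for Phkb, 0.20 for Phkg1 and 0.048 for Pdp1. In both TPM settings Pdha1 was at 0.017 in hearts labelled Tg-GRK2 against FVB. With the most abundant transcript the sign changed for Pfkfb3 (-0.73), Eno1 (-0.75), Phkb (0.33) and, in hearts labelled Tg-GRK2, Grk2 (-0.10). Leaving out each library in turn, Grk2 in Tg-RKIP against FVB ranged from -0.013 (without FVB replicate 1) to 0.057. With the most abundant transcript the shares of Pfkfb1, Pfkfb3, Aldoc and Eno1 overlapped between Tg-RKIP and FVB hearts, and that of Pygm turned (44.2% against 54.7%). Apart from the scalings themselves and the single transcript, the cause was not tested. Depth limited Aldoc, which had at most 54 reads in a library.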
